A study of Mus musculus with 22 samples.

Results

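The hypoxia response and glycolysis genes were examined in the fetal mouse urogenital sinus, which gives rise to the prostate in males. The list held 40 genes in 3 groups by role. These were 16 glycolytic enzymes, 22 other targets of the hypoxia-inducible factors (HIF) and the HIF alpha subunits Hif1a and Epas1. A gene was taken where it was the only symbol of a probe set, the set of short DNA probes that measures a transcript, and the probe set of highest mean over the 22 arrays stood for it. This gave 38 members of the 19050 genes tested. All 38 passed the filter on dim signals, so no member was lost to it. Gpi1 and Eno1 had no such probe set and were not analysed here, which left 14 glycolytic enzymes.

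RNA of the sinus epithelium was measured at embryonic day E16.75 in C57BL/6J fetuses, after enzyme digestion, removal of the mesenchyme under a microscope, and removal of bladder and urethral epithelium. The 22 arrays were 6 male knockouts, 6 male controls, 5 female knockouts and 5 female controls. Knockouts had the genotype ShhCre/+; Sox9fl/fl, in which Cre made from the Shh locus deletes floxed Sox9 in cells that express Shh. Littermate controls were Shh+/+; Sox9+/fl, so they lacked Cre, kept an unaltered Shh locus and carried 1 floxed Sox9 allele. The effects of Sox9 loss, of Cre and of the altered Shh allele cannot be told apart. Replicates are biological by their labels, which do not give the number of fetuses behind an array. The p-values therefore rest on the spread among arrays alone.

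Sox9 averaged 8.26 ± 0.14 in male knockouts and 9.33 ± 0.21 in male controls, and 7.89 ± 0.09 in female knockouts and 8.89 ± 0.11 in female controls (log2 signal, mean ± SD, n = 6 and 5 arrays per group). It was lower in every knockout array than in every control array of the same sex. Means of 8 epithelial markers lay between 11.25 and 11.46 on all 22 arrays. Male control 6 stood apart by its mesenchymal markers, with a mean of 7.86 over 11 genes against 6.90 to 7.26 on the male knockout arrays and 6.99 to 7.21 on the female arrays. Its means were also the highest of any array for 9 smooth muscle markers, at 7.24, and 5 endothelial markers, at 6.19. Array medians of all transcript clusters ran from 5.1 to 5.27. The Sox9 means of the knockouts lay above these medians, so its signal was lowered and not absent. The source of the Sox9 signal that remained was not tested.

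HIF is a pair of proteins, an alpha subunit encoded by Hif1a or Epas1 and the constant partner Arnt. With oxygen present, prolyl hydroxylases such as Egln1 and Egln3 mark the alpha subunit for destruction through the Vhl protein. When oxygen is scarce the subunit persists, and the pair binds DNA and raises genes for glucose uptake, glycolysis, lactate export, new vessels and survival. Glycolytic enzymes are also made at a high level in many growing fetal tissues, and several targets answer to other signals as well, so a level of RNA does not measure oxygen.

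The DNA core that HIF binds is an A or a G followed by CGTG, that is ACGTG or GCGTG. Promoter windows of 300 bases, from 250 before to 50 after a start site, were taken from RefSeq (GRCm38.p6) and searched for both letter strings on both strands. A total of 36 of the 40 listed genes had a window. Ndrg1, Epas1, Bnip3l and Slc2a3 had none in the table. At least 1 core was found in 43 of the 56 windows of the 36 genes (76.8%). Among genes tested, 12097 had a window, and 58.0% of their 15236 windows held a core. Of all 32851 windows it was 43.8%. The 36 genes include Gpi1 and Eno1, and windows of 1 gene can overlap and share a core, as in Aldoa. Mean GC content was 61.8% in the listed genes' windows and 60.0% in those of genes tested. ACGTG was in 51.8% of the listed genes' windows against 23.9% of windows of genes tested, and GCGTG was in 55.4% against 46.6%. By group, 74.1% of the 27 windows of glycolytic enzymes and 78.6% of the 28 windows of other targets held a core. A match is a string of letters in a window and no evidence that a factor binds there.

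The windows of 4 members are shown because they span the roles of the list: a secreted peptide, a glucose transporter, a mitochondrial protein and an enzyme. Capitals mark ACGTG or GCGTG on either strand, so that CACGT and CACGC are cores of the opposite strand and CACGTG holds an overlapping core on each. The Adm window lies at chr7:110627407-110627706 on the plus strand, that of Slc2a1 at chr4:119108495-119108794 on the plus strand, that of Bnip3 at chr7:138909457-138909756 on the minus strand and the first window of Ldha at chr7:46845554-46845853 on the plus strand.
Adm: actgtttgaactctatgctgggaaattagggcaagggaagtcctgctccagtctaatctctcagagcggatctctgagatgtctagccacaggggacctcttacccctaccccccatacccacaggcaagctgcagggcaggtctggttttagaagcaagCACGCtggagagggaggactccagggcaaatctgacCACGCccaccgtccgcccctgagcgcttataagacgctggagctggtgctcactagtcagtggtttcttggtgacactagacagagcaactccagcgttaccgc
Slc2a1: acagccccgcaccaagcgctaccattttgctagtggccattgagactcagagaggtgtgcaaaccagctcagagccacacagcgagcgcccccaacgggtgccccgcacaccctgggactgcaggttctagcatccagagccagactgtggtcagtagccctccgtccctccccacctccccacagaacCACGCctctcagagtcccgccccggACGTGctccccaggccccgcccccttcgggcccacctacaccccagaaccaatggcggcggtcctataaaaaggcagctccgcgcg
Bnip3: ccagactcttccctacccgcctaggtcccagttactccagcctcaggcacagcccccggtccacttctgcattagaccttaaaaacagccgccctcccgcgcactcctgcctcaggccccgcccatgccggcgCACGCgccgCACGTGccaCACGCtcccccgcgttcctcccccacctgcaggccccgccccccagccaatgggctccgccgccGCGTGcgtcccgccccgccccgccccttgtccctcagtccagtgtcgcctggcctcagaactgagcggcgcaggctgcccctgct
Ldha: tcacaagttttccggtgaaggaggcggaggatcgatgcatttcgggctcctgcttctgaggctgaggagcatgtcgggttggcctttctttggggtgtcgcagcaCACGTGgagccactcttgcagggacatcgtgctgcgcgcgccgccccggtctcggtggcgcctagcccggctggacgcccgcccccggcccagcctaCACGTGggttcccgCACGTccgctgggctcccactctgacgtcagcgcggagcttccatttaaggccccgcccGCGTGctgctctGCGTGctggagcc
These windows held 2 separate stretches in Adm, 2 in Slc2a1, 4 in Bnip3 and 5 in Ldha. The Adm window had GCGTG only.

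The largest difference among the members was between the sexes. In knockouts, 12 of the 38 members passed the test for male minus female, 11 of them lower in males and 1, Epas1, higher (limma, p adjusted by Benjamini-Hochberg over the 19050 genes, threshold 0.05). Of all genes tested, 7.19% passed, 3.52% lower and 3.66% higher. In controls, 18 of 38 members passed, 17 lower in males and Epas1 higher, against 6.94% of all genes, 3.67% lower and 3.27% higher. Fewer cells of a type and less RNA per cell cannot be told apart in such bulk samples. The knockout and control comparisons used different arrays but 1 shared estimate of the spread. In knockouts 10 members had every male array below every female array, against 3.03% of all genes, and in controls 6 did, against 2.82%. The opposite order was found for 1 member, Epas1, in each genotype, against 2.79% of all genes in knockouts and 2.82% in controls.

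A total of 9 members were called lower in males in both genotypes, namely Adm, Ndrg1, Slc2a1, Pfkfb3, P4ha2, Bnip3, Ddit4, Pfkp and Aldoa. Over all genes tested, 397 were lower and 412 higher in both. The direction was the same in both genotypes for 35 of 38 members (92.1%), against 68.0% of all genes. A call in 1 genotype alone does not show a difference between the genotypes. That difference was tested as an interaction, and 0 of 38 members passed, against 0.00525% of all genes, with 1 member, Slc16a3, at an unadjusted p under 0.05 (limma), against 4.04% of all genes. The number of calls in knockouts moved with the setting. It was 7 without female knockout 1, 2 or 3, 7 after median centring of the arrays and 6 with the replicate number as a block. Adm, Ndrg1, Slc2a1, Bnip3, Ddit4 and Epas1 were called in knockouts under each of 31 alternative settings. The knockout call was lost for P4ha2 under 21 of them, Pfkp under 11, Pfkm under 9, Aldoa and Plin2 under 8 and Pfkfb3 under 4. Of the 18 calls in controls 12 held under each alternative. There Pkm lost its call under 22, Hk2 under 13, Mxi1 under 11, Higd1a under 9, and Aldoa and P4ha1 under 1 each.

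**Figure D1:**
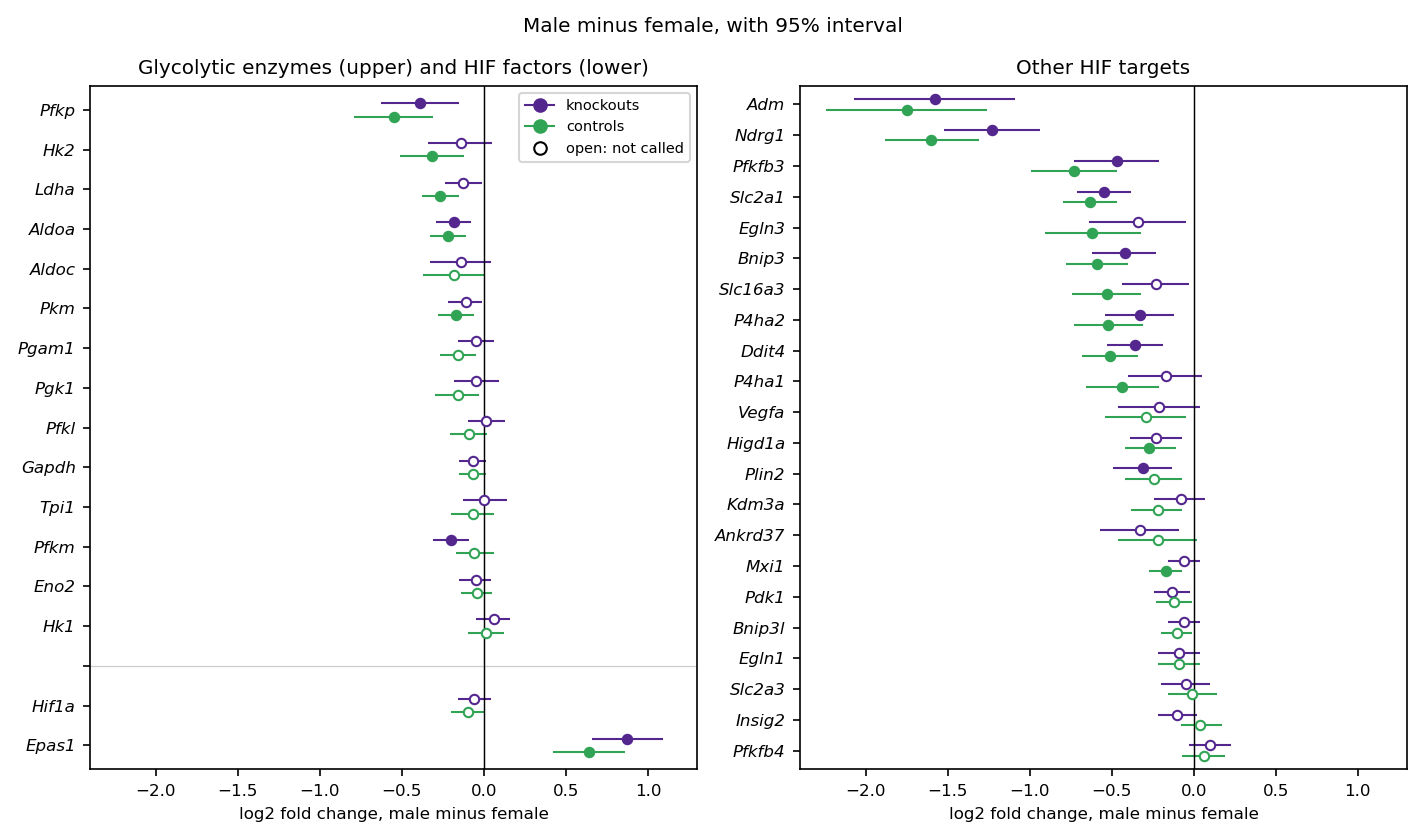
Log2 fold change of each member, male minus female, in knockouts (upper point of each pair, purple) and in controls (lower point, green), with 95% intervals. Filled points passed the test and open points did not. Adm and Ndrg1 lie farthest to the left in both genotypes, with log2 fold changes of -1.58 and -1.23 in knockouts and -1.75 and -1.60 in controls, while Epas1 is on the right at 0.87 and 0.64.

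The other HIF targets shifted further than the glycolytic enzymes. Their median log2 fold change, male minus female, was -0.23 in knockouts and -0.28 in controls, and that of the enzymes was -0.09 in knockouts and -0.16 in controls. The median of all genes tested was -0.01 in both. Among the other targets, 8 of 22 were called lower in males in knockouts and 12 of 22 in controls. Among the enzymes it was 3 of 14 in knockouts and 5 of 14 in controls. No enzyme was called in knockouts after median centring, with the replicate block, without male knockout 2 or without female knockout 2. In controls 2 of 14 were called after median centring. No test of the difference between the groups of genes was made, so these counts and medians are a description.

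The same gene values, averaged per array, restate these differences and are no second test. For each array the deviation of each gene from its mean over the 22 arrays was averaged over the group of genes. The other targets deviated by -0.15 ± 0.09 in male knockouts and 0.18 ± 0.07 in female knockouts, and by -0.19 ± 0.11 in male controls and 0.24 ± 0.16 in female controls. All 12 male arrays were below 0 and all 10 female arrays above it. Nearest to the line were male knockout 6 at -0.02 and female control 3 at 0.02. Adm and Ndrg1, the members of largest difference, are part of this mean. Without them female control 3 would not lie above 0, so the full split rested in part on these genes. The enzymes deviated by -0.04 ± 0.06 in male knockouts and 0.06 ± 0.03 in female knockouts, and by -0.08 ± 0.08 in male controls and 0.09 ± 0.07 in female controls. Here the sexes overlapped, since male control 3 reached 0.05 and male knockout 6 reached 0.02 while the lowest female array was at 0.00.

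**Figure D2:**
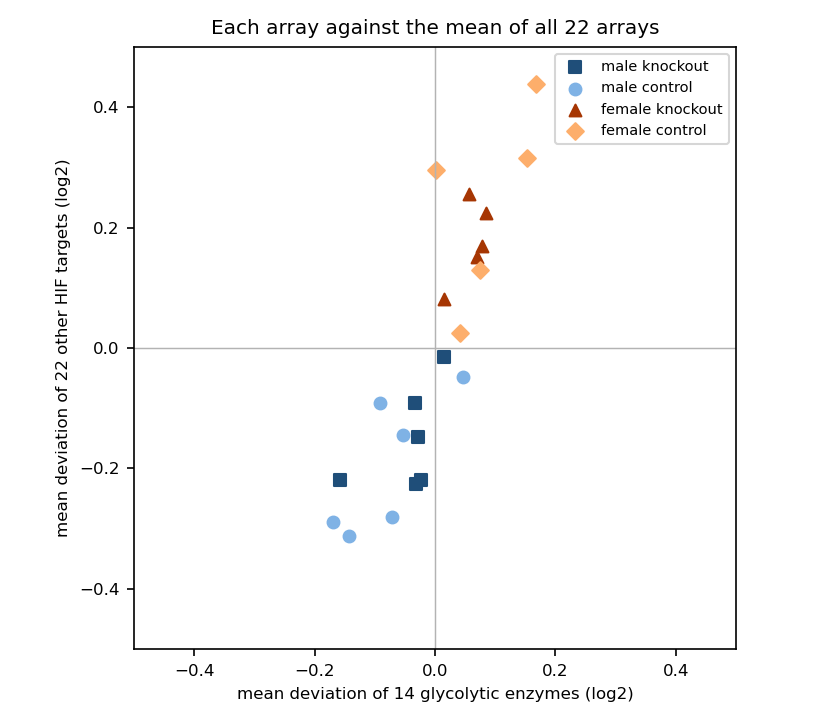
Mean deviation from the 22-array mean of the 14 glycolytic enzymes (x axis, log2) against that of the 22 other HIF targets (y axis, log2), 1 point per array and 1 marker per group. Male arrays lie below 0 on the y axis and female arrays above it, while on the x axis male control 3 and male knockout 6 lie among the female arrays.

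Adm and Ndrg1 had the largest differences of any member. Adm encodes adrenomedullin, a secreted peptide that widens vessels. Its log2 signal in male knockouts had a lowest value of 7.58, a median of 8.17 and a highest of 8.30, against 9.62, 10.35, 9.36, 9.43 and 9.58 in the 5 female knockouts. In male controls the lowest was 6.85, the median 7.94 and the highest 8.42, against 10.18, 9.71, 9.17, 9.20 and 9.93 in female controls. Every male array was below every female array of its genotype. Adm was 2.99-fold lower in males among knockouts, at -1.58 on the log2 scale (SE 0.24, adjusted p = 7.8e-05), and 3.36-fold lower among controls, at -1.75 (SE 0.24, adjusted p = 2.82e-05).

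Ndrg1, a cytoplasmic protein induced by hypoxia, differentiation and stress, had a lowest value of 8.47, a median of 8.69 and a highest of 9.27 in male knockouts, against 9.98, 10.29, 9.87, 9.94 and 9.90 in female knockouts. Male controls had 8.41, 8.53 and 8.91 as the lowest, median and highest, against 10.51, 10.31, 9.75, 10.10 and 10.32 in female controls. Male and female arrays again did not overlap. It was 2.34-fold lower in males among knockouts (-1.23, SE 0.14, adjusted p = 1.9e-06) and 3.02-fold lower among controls (-1.60, SE 0.14, adjusted p = 4.98e-08). By p it ranked 92 of the 19050 genes in knockouts and 28 in controls.

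The genes that carry glucose in and lactate out differed among themselves. Slc2a1, the glucose transporter of most fetal tissues, had 10.98, 11.05 and 11.33 as the lowest, median and highest value in male knockouts, against 11.67, 11.87, 11.59, 11.70 and 11.54 in female knockouts. Male controls had 11.08, 11.17 and 11.29, against 11.96, 11.87, 11.55, 11.75 and 11.92 in female controls. The arrays of the sexes did not overlap in either genotype. It was 1.46-fold lower in males among knockouts (-0.55, SE 0.08, adjusted p = 5.01e-05) and 1.55-fold lower among controls (-0.63, SE 0.08, adjusted p = 9.54e-06). Slc16a3, a lactate exporter, averaged 6.54 ± 0.05 in male knockouts and 6.78 ± 0.12 in female knockouts, a difference of -0.23 that did not pass (adjusted p = 0.205), although the arrays did not overlap. In controls it averaged 6.46 ± 0.17 in males and 6.99 ± 0.29 in females and was called lower in males (-0.53, adjusted p = 0.00109). Slc2a3, a glucose transporter best known from neurons, differed by -0.05 in knockouts and -0.01 in controls, neither of which passed. Its mean of 5.51 over the 22 arrays was close to the array medians of 5.1 to 5.27, so a difference could be missed.

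Of the enzymes that set the pace of glycolysis from outside the main chain, Pfkfb3 was called in both genotypes. Pfkfb3 makes the sugar phosphate that activates phosphofructokinase. It had a lowest value of 6.83, a median of 7.23 and a highest of 7.41 in male knockouts, against 7.79, 7.61, 7.79, 7.68 and 7.50 in female knockouts. In male controls these were 6.79, 7.08 and 7.39, against 8.11, 7.86, 7.35, 7.84 and 7.87 in female controls. The sexes were apart in knockouts, and in controls female control 3 overlapped with the males. It was lower in males by 1.39-fold in knockouts (-0.47, SE 0.13, adjusted p = 0.0201) and by 1.66-fold in controls (-0.73, SE 0.13, adjusted p = 0.000424). Its relative Pfkfb4 differed by 0.10 in knockouts and 0.06 in controls, and Pdk1, the kinase that closes the entry of pyruvate into the mitochondrial cycle, by -0.13 in knockouts and -0.12 in controls. Neither Pfkfb4 nor Pdk1 passed the test. Pfkfb4 had a lower signal than Pfkfb3, with means of 6.51 and 7.41 over the 22 arrays.

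Along the glycolytic chain, Pfkp and Aldoa were the enzymes called in both genotypes. Pfkp, the platelet form of phosphofructokinase, had 6.75, 6.96 and 7.16 as the lowest, median and highest value in male knockouts, against 7.41, 7.38, 7.31, 7.43 and 7.27 in female knockouts. In male controls it had 6.54, 6.76 and 7.34, against 7.55, 7.60, 7.31, 7.43 and 7.13 in female controls. Knockout arrays did not overlap between the sexes, and control arrays did. The log2 fold change was -0.39 in knockouts (SE 0.12, adjusted p = 0.0392) and -0.55 in controls (SE 0.12, adjusted p = 0.00369). Aldoa, an aldolase, averaged 8.22 ± 0.07 in male knockouts and 8.40 ± 0.07 in female knockouts, and 8.18 ± 0.10 in male controls and 8.40 ± 0.06 in female controls. Its log2 fold change was -0.18 in knockouts (adjusted p = 0.0321) and -0.22 in controls (adjusted p = 0.00965), the smallest of the members called lower in both. Its male and female arrays did not overlap in knockouts, and in controls male control 3 at 8.34 lay above female control 5 at 8.33.

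Ldha, which turns pyruvate into lactate, was called lower in males in controls only. It had 9.52, 9.57 and 9.73 as the lowest, median and highest value in male knockouts, against 9.75, 9.71, 9.79, 9.83 and 9.60 in female knockouts (-0.13, SE 0.06, adjusted p = 0.216). In controls the values were 9.46, 9.51 and 9.70 in males, against 9.92, 9.85, 9.72, 9.78 and 9.75 in females, with no overlap (-0.27, SE 0.06, adjusted p = 0.00288). The difference between these effects was not called, with 0.14 on the log2 scale and an adjusted p of 0.997. Hk2, a hexokinase that binds mitochondria, differed by -0.14 in knockouts without passing and was lower in males in controls at -0.32 (adjusted p = 0.0409). Pkm, pyruvate kinase, differed by -0.11 in knockouts without passing and was lower in males in controls at -0.17 (adjusted p = 0.0467, up to 0.302 over the alternatives). Hk2 averaged 7.94 ± 0.18 in male knockouts and 8.08 ± 0.13 in female knockouts, and 7.99 ± 0.12 in male controls and 8.30 ± 0.22 in female controls. Pkm averaged 10.09 ± 0.06 in male knockouts and 10.20 ± 0.08 in female knockouts, and 10.05 ± 0.10 in male controls and 10.22 ± 0.06 in female controls. Pfkm, the muscle form of phosphofructokinase, passed only in knockouts, where it averaged 7.48 ± 0.13 in males and 7.68 ± 0.06 in females (-0.20, adjusted p = 0.0241). In controls its means were 7.52 ± 0.06 in males and 7.58 ± 0.06 in females (-0.06).

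The other 8 enzymes passed in neither genotype. Their log2 fold changes, male minus female, ran from -0.14 (Aldoc) to 0.06 (Hk1) in knockouts and from -0.18 (Aldoc) to 0.01 (Hk1) in controls. Gapdh differed by -0.07 in both, Tpi1 by 0.00 in knockouts and -0.07 in controls, and Pgam1 by -0.05 in knockouts and -0.16 in controls. Eno2, the neuronal enolase, differed by -0.05 in knockouts and -0.04 in controls. Signals were low for Hk1 and Eno2, with means of 6.63 and 5.80 over the 22 arrays, so a difference there could be missed. Pfkl, the liver form of phosphofructokinase, differed by 0.01 in knockouts and -0.09 in controls.

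Pgk1, the first enzyme of the chain that makes ATP, needs a caution on its probe set. The probe set of highest mean carries chromosome 12 in its identifier, while the gene lies on chromosome X. Identifier and gene chromosomes matched for 99.7% of the 30099 probe sets where both were known. A second Pgk1 probe set carries X in its identifier. The first had group means of 10.20 in male knockouts, 10.25 in female knockouts, 10.13 in male controls and 10.29 in female controls, and the second 9.36 in male knockouts, 9.46 in female knockouts, 9.31 in male controls and 9.46 in female controls. The first differed by -0.05 in knockouts and -0.16 in controls and did not pass (adjusted p = 0.833 and 0.159). Gapdh and Pgam1 also share other probe sets with pseudogene or predicted symbols, which were left out. For Hif1a, outside the chain, a probe set of several symbols was left out too, with a mean of 6.30 over the 22 arrays.

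Among the oxygen sensors, Egln3 was called lower in males in controls. It averaged 9.52 ± 0.22 in male knockouts and 9.87 ± 0.04 in female knockouts (-0.34, adjusted p = 0.192). Male controls averaged 9.40 ± 0.26 and female controls 10.02 ± 0.39 (-0.62, SE 0.14, adjusted p = 0.0075). Egln1, the sensor that acts in most cells at normal oxygen, differed by -0.09 in both genotypes and passed in neither. Kdm3a, a histone demethylase, differed by -0.08 in knockouts and -0.22 in controls without passing. Mxi1, a repressor that opposes Myc, averaged 7.22 ± 0.08 in male knockouts and 7.27 ± 0.03 in female knockouts (-0.06), and 7.22 ± 0.10 in male controls and 7.39 ± 0.07 in female controls, where it was called (-0.17, adjusted p = 0.0342).

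Among targets that act on mitochondria and growth signalling, Bnip3 and Ddit4 were called in both genotypes. Bnip3, which marks mitochondria for removal, had 7.79, 8.01 and 8.19 as the lowest, median and highest value in male knockouts, against 8.41, 8.41, 8.39, 8.46 and 8.34 in female knockouts. In male controls it had 7.74, 7.86 and 8.23, against 8.68, 8.66, 8.18, 8.40 and 8.58 in female controls. Knockout arrays did not overlap, while male control 3 lay above female control 3. Bnip3 was lower in males by 1.34-fold in knockouts (-0.42, SE 0.09, adjusted p = 0.00435) and by 1.51-fold in controls (-0.59, SE 0.09, adjusted p = 0.00017). Its relative Bnip3l differed by -0.06 in knockouts and -0.10 in controls and passed in neither.

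Ddit4, an inhibitor of the growth kinase mTOR, had 8.12, 8.17 and 8.47 in male knockouts, against 8.69, 8.60, 8.65, 8.46 and 8.61 in female knockouts. Male controls had 8.06, 8.30 and 8.41, against 8.81, 8.83, 8.60, 8.60 and 9.06 in female controls, with no overlap. The male values are the lowest, median and highest, and in knockouts male 6 at 8.47 lay just above female 4 at 8.46. The log2 fold change was -0.36 in knockouts (SE 0.08, adjusted p = 0.00588) and -0.51 in controls (SE 0.08, adjusted p = 0.0002). Higd1a, a mitochondrial inner membrane protein, averaged 9.38 ± 0.12 in male knockouts and 9.62 ± 0.06 in female knockouts (-0.23, adjusted p = 0.0699), and 9.31 ± 0.12 in male controls and 9.58 ± 0.19 in female controls, where it was called (-0.27, adjusted p = 0.0347).

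P4ha1 and P4ha2 encode the catalytic subunits of collagen prolyl hydroxylase, which makes the triple helix stable. P4ha2 averaged 7.41 ± 0.16 in male knockouts and 7.74 ± 0.15 in female knockouts (-0.33, adjusted p = 0.0493), and 7.38 ± 0.14 in male controls and 7.90 ± 0.26 in female controls (-0.52, adjusted p = 0.00152). Its arrays overlapped between the sexes in both genotypes. P4ha1 averaged 8.0 ± 0.17 in male knockouts and 8.18 ± 0.15 in female knockouts, a difference that did not pass, and 7.85 ± 0.16 in male controls and 8.29 ± 0.28 in female controls, where it was lower in males (-0.44, adjusted p = 0.0125). Plin2, which coats lipid droplets, passed in knockouts alone, with 8.60 ± 0.22 in males and 8.91 ± 0.05 in females (-0.31, adjusted p = 0.0273), beside 8.68 ± 0.09 in male controls and 8.92 ± 0.16 in female controls (-0.24, adjusted p = 0.0963). Vegfa, the main growth factor for vessels, differed by -0.21 in knockouts and -0.29 in controls and was called in neither (adjusted p = 0.409 and 0.167). Ankrd37 differed by -0.33 in knockouts and -0.22 in controls, and Insig2, which holds back sterol synthesis, by -0.10 in knockouts and 0.04 in controls, without a call.

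The factors themselves went apart. Epas1, the alpha subunit also named HIF-2 alpha, was the only member called higher in males. It had 7.66, 8.15 and 8.48 as the lowest, median and highest value in male knockouts, against 7.28, 7.03, 7.48, 7.19 and 7.25 in female knockouts. Male controls had 7.69, 7.77 and 8.03, against 7.06, 7.31, 7.12, 7.24 and 7.08 in female controls. All male arrays lay above all female arrays of their genotype, by 1.83-fold on average in knockouts (0.87, SE 0.11, adjusted p = 5.1e-06) and 1.56-fold in controls (0.64, SE 0.11, adjusted p = 0.000305). Hif1a averaged 8.77 ± 0.04 in male knockouts and 8.83 ± 0.07 in female knockouts, and 8.81 ± 0.11 in male controls and 8.92 ± 0.02 in female controls. Its differences of -0.06 and -0.10 did not pass (adjusted p = 0.632 and 0.242). HIF alpha subunits are controlled mainly at the protein, which the arrays do not measure.

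**Figure D3:**
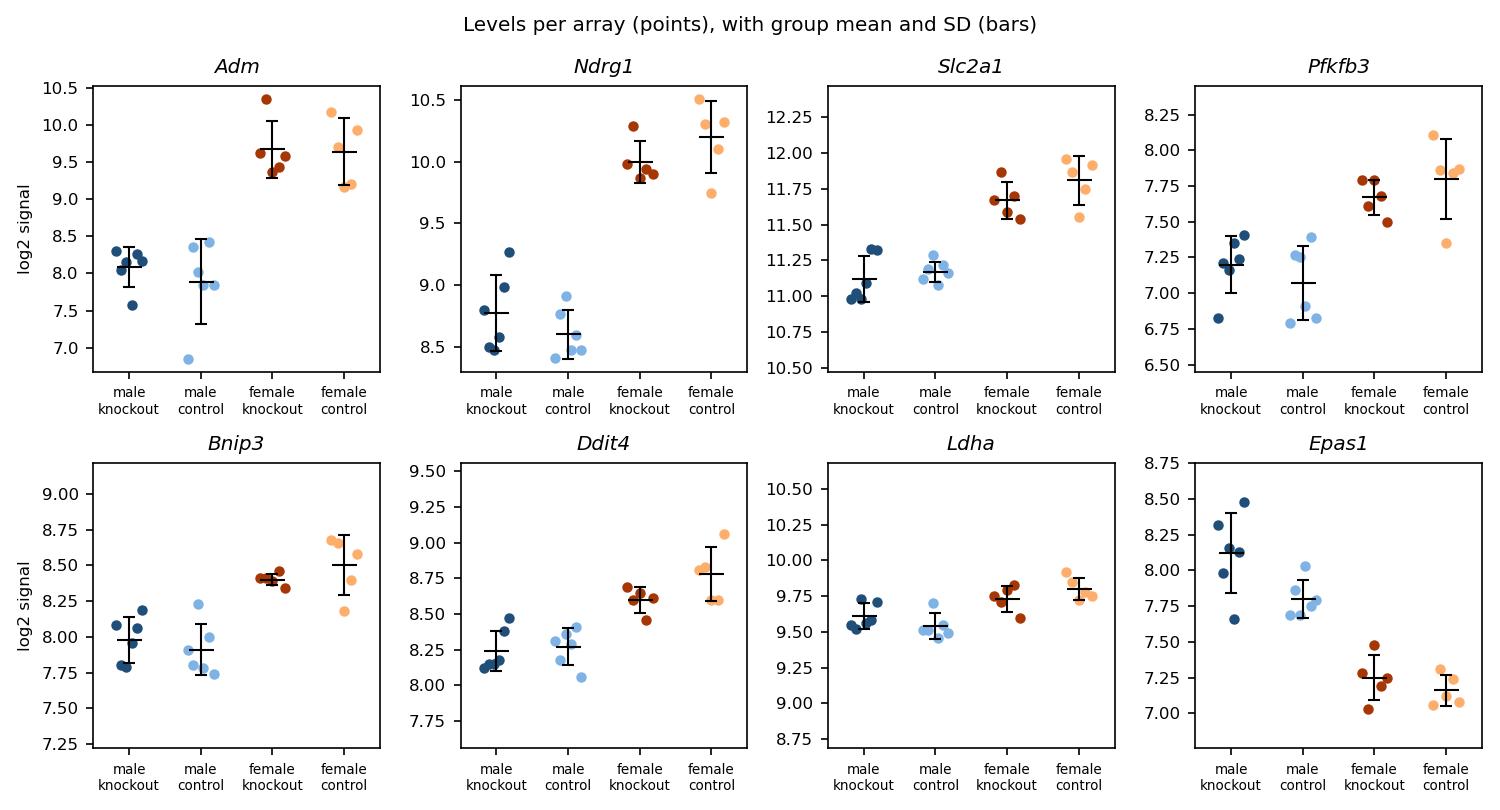
Log2 signal per array (points) of 8 members in the 4 groups, with the group mean and SD (bars), each panel on its own scale. Male arrays lie below female arrays of the same genotype in Adm, Ndrg1 and Slc2a1, and above them in Epas1, while Ldha overlaps between the sexes in knockouts.

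Of 50 further genes of hypoxia and glucose metabolism listed beside the members, 41 were tested. The list was chosen with earlier results of these data known. Its share of calls is therefore a description and no independent support. In knockouts 9 were lower in males and 3 higher, against 3.52% lower and 3.66% higher of all genes, with a median log2 fold change of -0.10. In controls 11 were lower and 2 higher, against 3.67% lower and 3.27% higher of all genes, with a median of -0.01. Genes called lower in both genotypes were Bhlhe41 and Bhlhe40, repressors of transcription, Car9 and Car12, carbonic anhydrases at the cell surface, Fam162a, a mitochondrial protein, Mif, a cytokine, and Stc2, a secreted glycoprotein. Bhlhe41 had the largest difference of these at -0.93 in knockouts and -1.07 in controls, and Fam162a differed by -0.33 in knockouts and -0.49 in controls. Hif3a, an alpha subunit whose products can restrain HIF, was higher in males in both genotypes, at 0.50 in knockouts and 0.28 in controls. Of these calls, that of Stc2 in knockouts (-0.24, adjusted p = 0.0492) was lost under 20 of 30 alternatives and in controls under 1, and that of Hif3a in controls under 10 of 31. The other calls of these genes held under each alternative run.

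In knockouts alone, Fbp2 (-0.52) and Ldhb (-0.46), a gluconeogenic enzyme and a lactate dehydrogenase subunit, were lower in males, and Stc1 (0.38) and Slc16a7 (0.21) were higher. In controls alone, Ak4 (-0.65), an adenylate kinase, Slc16a1 (-0.49), a transporter of lactate, Ero1a (-0.39), an oxidase that helps form disulfide bonds, and Gys1 (-0.25), glycogen synthase, were lower. Egln2 (0.18), a HIF prolyl hydroxylase, was higher there. Ldhb lost its knockout call under 12 of 31 alternatives and Slc16a7 under 8, and Gys1 lost its control call under 5, Egln2 under 4 and Ero1a under 1. Whether these genes differed in their sex effect between genotypes was tested as an interaction, and 0 of the 41 passed at an adjusted p under 0.05, with 4 at an unadjusted p under 0.05 (limma), against 4.04% of all genes.

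Other signals moved with sex too. Genes of the dissociation stress response, 8 of 10 listed, averaged 7.31 (7.06 to 7.91) in male knockouts and 7.64 (7.34 to 8.18) in female knockouts, and 7.24 (7.12 to 7.34) in male controls and 7.53 (7.49 to 7.59) in female controls. All 8 were below 0 in male minus female in both genotypes, against 56.0% of all genes in knockouts and 55.2% in controls. Fosb was hardly so, at -0.01 in knockouts and -0.00 in controls. Of the 8 genes Jun alone was called (limma), at -1.05 in knockouts (adjusted p = 5.91e-05) and -1.04 in controls (adjusted p = 7.99e-05). Urothelial markers, 6 of 6, averaged 10.02 in male knockouts and 10.26 in female knockouts, and 9.95 in male controls and 9.94 in female controls. Mesenchymal markers, 11 of 14, averaged 7.08 in both male and female knockouts, and 7.15 in male controls and 7.10 in female controls. Among them Lum was higher in male than in female knockouts (0.57, adjusted p = 0.00743), and Dcn was lower in male than in female controls (-0.36, adjusted p = 0.0262). Of the 8 epithelial markers, Krt18 was lower in males in both genotypes, at -0.34 in knockouts (adjusted p = 0.00557) and -0.28 in controls (adjusted p = 0.0255). In knockouts Krt8 was lower in males (-0.21, adjusted p = 0.0133) and Foxa1 higher (0.22, adjusted p = 0.0237). Of 10 immune markers 9 were tested, and none was called. In knockouts all 9 were below 0 in male minus female, against 56.0% of all genes, with a median of -0.15. At an unadjusted p under 0.05 (limma) there were 2, against 3271 of the 19050 genes tested. In controls 3 of the 9 were below 0, with a median of 0.01. Smooth muscle markers, 9 of 10, averaged 6.25 in male knockouts and 6.24 in female knockouts. In controls they averaged 6.41 in males and 6.24 in females. Below 0 in male minus female were 5 of these 9 in knockouts and 1 in controls, against 56.0% and 55.2% of all genes. None of the 9 was called. Of 10 endothelial markers 5 were tested, with array means from 5.49 to 6.19, and Pecam1, Kdr, Tek, Emcn and Egfl7 did not pass the filter. The part of these signals in the sex difference of the members was not tested. Without male control 6, the array with the highest mesenchymal mean, the median male minus female difference in controls was -0.14 for the enzymes, with 3 called lower, and -0.29 for the other targets, with 11 called lower.

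No member was called changed between knockouts and controls. Of the 38, 0 passed in males, 0 in females and 0 in the average over the sexes, against 0.199%, 0.0315% and 0.247% of all genes (limma). At an unadjusted p under 0.05 there were 3 in males, 2 in females and 3 in the average, against 6.27%, 5.46% and 7.19% of all genes. Every knockout array lay below every control array for 1 member in males, against 45 of the 19050 genes tested. In females this was so for 2 members, 1 alpha subunit and 1 other target, against 118 genes. The reverse order was found for 0 members in either sex, against 35 genes in males and 147 in females. Log2 fold changes, knockout minus control, ran from -0.19 (Insig2) to 0.32 (Epas1) in males and from -0.22 (Hk2) to 0.10 (Pfkm) in females. The 95% interval lay within 0.5 of 0 on either side for 36 members in males, 36 in females and all 38 in the average. A p that misses the threshold does not show equal levels. Each interval is for 1 gene and is not adjusted for the number of genes, so some may miss the true change.

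The enzymes had a median log2 fold change, knockout minus control, of 0.05 in males and -0.03 in females, and the other targets of 0.06 in males and -0.05 in females. The median of all genes was 0.01 in both sexes. Of the 38 members, 13 (34.2%) were below 0 in males and 26 (68.4%) in females, against 43.3% and 45.2% of all genes. The same interaction test also compares these effects between the sexes. The largest difference among the members was that of Ndrg1 at 0.37 on the log2 scale, with a 95% interval from -0.04 to 0.77 (adjusted p = 0.997).

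In males the smallest p belonged to Insig2. It averaged 7.67 ± 0.10 in male knockouts and 7.86 ± 0.06 in male controls, and the difference was -0.19 (SE 0.06, adjusted p = 0.365). Every male knockout array was below every male control array, which was so for 0.236% of all genes. In females it averaged 7.77 ± 0.07 in knockouts and 7.82 ± 0.13 in controls. Epas1 came next, with 8.12 ± 0.28 in male knockouts and 7.80 ± 0.13 in male controls (0.32, SE 0.10, adjusted p = 0.447). Its male knockout arrays ran from 7.66 to 8.48 and overlapped with the controls, 7.69 to 8.03. Without male knockout 4, the lowest of the group, its difference was 0.41 with an adjusted p of 0.0411. Over the 31 alternatives its adjusted p ran from 0.0411 to 0.809. In females Epas1 averaged 7.25 ± 0.16 in knockouts and 7.16 ± 0.11 in controls.

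The other members of smallest p in males were Tpi1, with 11.96 ± 0.05 in knockouts and 11.83 ± 0.13 in controls, Pfkfb4, with 6.59 ± 0.08 in knockouts and 6.49 ± 0.11 in controls, P4ha1, with 8.0 ± 0.17 in knockouts and 7.85 ± 0.16 in controls, and Ldha, with 9.61 ± 0.09 in knockouts and 9.54 ± 0.09 in controls. Their adjusted p ran from 0.75 to 0.893. In females the smallest p was that of Mxi1, with 7.27 ± 0.03 in knockouts and 7.39 ± 0.07 in controls (-0.12, adjusted p = 0.875). Hk2 had 8.08 ± 0.13 in female knockouts and 8.30 ± 0.22 in female controls (-0.22, adjusted p = 0.884). Ddit4 and Slc16a3 differed by -0.18 and -0.21 (adjusted p = 0.913 for each), and Pfkm and Slc2a1 by 0.10 and -0.14 (adjusted p = 0.949 and 0.966).

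**Figure D4:**
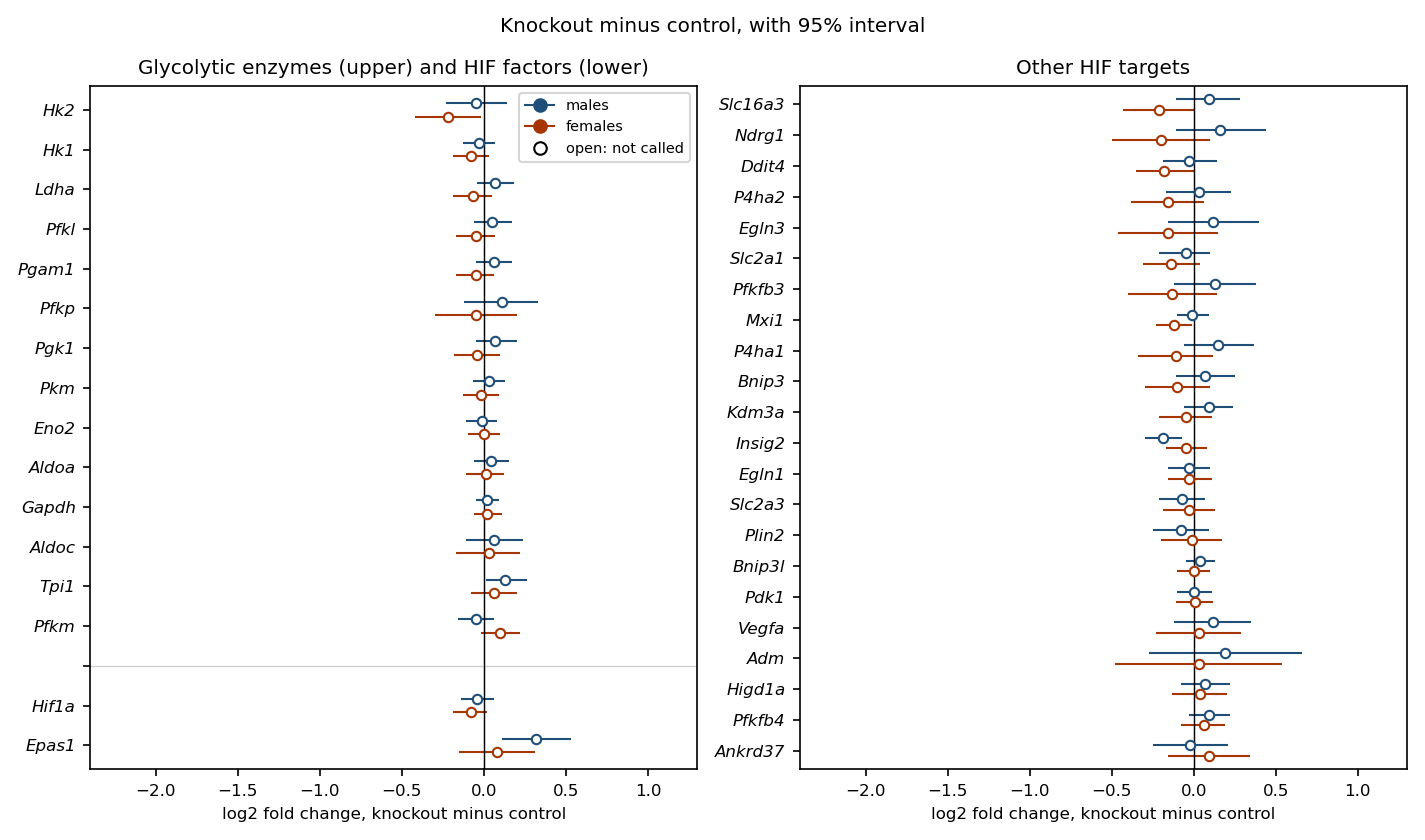
Log2 fold change of each member, knockout minus control, in males (upper point of each pair, blue) and in females (lower point, orange), with 95% intervals, on the x axis of the sex plot. All points are open because none passed the test, and they lie between -0.22 (Hk2 in females) and 0.32 (Epas1 in males).

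The 41 further genes gave 0 calls between knockouts and controls of either sex or in the average, with 9 in males, 6 in females and 7 in the average at an unadjusted p under 0.05 (limma), against 6.27%, 5.46% and 7.19% of all genes. Stc1 had the smallest p in males, with 10.27 ± 0.09 in male knockouts and 10.01 ± 0.14 in male controls (0.27, SE 0.07, adjusted p = 0.275). Ak4 had 8.09 ± 0.12 in male knockouts and 7.80 ± 0.19 in male controls (0.29, SE 0.10, adjusted p = 0.553).

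Covariation from array to array within groups was tested for Pgk1 and 4 partners. The deviations from the group means were correlated over the 22 arrays, with p from 100000 permutations within groups, two-sided and adjusted over the 4 pairs. Pearson's r was 0.59 with Ldha (adjusted p = 0.00991), 0.59 with Slc2a1 (0.00991), 0.61 with Bnip3 (0.00991) and 0.54 with Ndrg1 (0.0254). Spearman's rho was 0.48 (adjusted p = 0.0556), 0.63 (0.0224), 0.51 (0.0556) and 0.39 (0.114) in that order, so that by ranks only the pair with Slc2a1 passed. Without male knockout 2 and male knockout 6, the arrays whose Pgk1 deviation was farthest from the median, r was 0.49, 0.50, 0.51 and 0.32 in the same order. Without male knockout 2 and male control 2, farthest by the Pgk1 level itself, r was 0.56, 0.65, 0.55 and 0.61.

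These relations rested in part on male control 3, the male array with the highest mean deviation of the enzymes. Without it r was 0.49 with Ldha, 0.57 with Slc2a1, 0.51 with Bnip3 and 0.47 with Ndrg1, and none passed (adjusted p = 0.0649 for the first 3 and 0.0824 for Ndrg1). Ndrg1 also missed the threshold without male knockout 6 (r = 0.37, adjusted p = 0.124). With the Pgk1 probe set on X, an alternative added after seeing the data, r was 0.63, 0.53, 0.62 and 0.50. All arrays share their scaling, so part of any such r may be common to many genes, which was not tested.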

How the data were processed

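RNA from 22 samples was hybridised to Affymetrix whole-transcript arrays after biotin labelling, per the labels' protocols. The authors deposited 1 table of log2 values for 72688 probe sets, of which 65770 were transcript clusters. The values lay between 1.59 and 14.23, from which the log2 scale was inferred. How the signals were background-corrected, normalized and summarized is not given in the sources used here. The number of arrays limits the precision. No array was a copy of another: at most 0.0334% of transcript clusters had equal values in any pair.

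Probe sets were named through the platform's table, with symbols updated from RefSeq. Probe sets of 1 symbol were kept if above the array median (50th percentile) on at least 5 arrays, and the one of highest mean stood for a gene, which gave 19050 genes. limma 3.58.1 (R 4.3.3) was fitted with 4 group means on all 22 arrays (18 residual and 4.34 prior degrees of freedom), with two-sided moderated tests, and p-values were adjusted by Benjamini-Hochberg over all genes of a comparison. A gene with an adjusted p under 0.05 was called. Correlations used deviations from group means and permutation within groups. The programs were tested on simulated data. The members, the further genes, the marker lists and the tests were chosen with earlier results of these data known.

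All 38 members could be named. Values in every group were given for members that passed in a comparison, or for the 6 of smallest p where none did. Tpi1 and Pfkfb4 were exceptions, with group means in males only. Further genes were named where they passed or had 1 of the 4 smallest p. In the interaction, the largest difference was named after its value was seen, as were single arrays that stood apart. Alternatives were quantile normalization, median centring, no filter, a stricter percentile (75) in the filter, averaging over probe sets, trend and robust eBayes, a fit on the compared groups alone, a replicate block, array weights, and leaving out each array in turn. The Pgk1 probe set with X in its identifier was added after seeing the data. No litter, batch or scan date was known. Plots were made in Python 3.11.15 with matplotlib 3.10.9.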

Additional observations from a re-analysis of the deposited data

Results flagged for a closer look

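For each member and group, the highest or lowest array was compared with the others by Dixon's criterion. It singled out 8 of the 152 sets of a gene and a group (5.26%), about the 1 in 20 that chance gives. The values are on the log2 scale.

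Adm had 3 of them. Male knockout 4 was at 7.58, below the other male knockouts at 8.04 to 8.30. Male control 1 was at 6.85, below the other male controls at 7.84 to 8.42. Female knockout 2 was at 10.35, above the other female knockouts at 9.36 to 9.62. The same female knockout 2 was also highest for Ndrg1, at 10.29 against 9.87 to 9.98. Each of these Adm and Ndrg1 values lay on its own sex's side, and both genes were called in both genotypes without each of these arrays.

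P4ha1 was at 7.91 in female knockout 5, below 8.20 to 8.27 in the others of its group. Bnip3l was at 9.55 in male knockout 6, above 9.32 to 9.37. Pfkl was at 9.18 in female knockout 4, above 9.07 to 9.08. Eno2 was at 5.94 in male control 4, above 5.70 to 5.76. The cause of these values was not tested.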

How the results depend on the processing

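No called result changed direction under the alternatives run. In the male minus female comparison of knockouts the 12 calls among the members became 7 after median centring and 6 with the replicate number as a block, and ranged from 7 to 13 when single arrays were left out, with 7 without female knockout 1, 2 or 3. In controls the 18 calls were 13 to 19 under other settings, the lowest after median centring, and 13 to 20 without single arrays. In controls 12 of the 18 members and in knockouts 6 of the 12 were called under all 31 alternatives. Median centring moved the median of all genes from -0.0134 to 0.0248 in the control comparison. For knockout minus control the count in males was 0 to 1 without single arrays, and 1 only without male knockout 4 (Epas1). It was 0 in females, in the average and in the interaction under all alternatives run. The genes called, and in each comparison without a called member the 6 members of smallest p, gave 2483 recomputed values, of which 179 lost their call with the same direction. Of the members not called in a comparison of the sexes, 3 of 26 in knockouts (Slc16a3, Egln3 and Higd1a) and 3 of 20 in controls (Pgam1, Kdm3a and Plin2) were called under at least 1 alternative, as were 4 of 29 further genes in knockouts and 3 of 28 in controls. Between knockouts and controls this was so for Epas1 alone. The correlations of Pgk1 without single arrays ran from 0.49 to 0.64 with Ldha, 0.49 to 0.65 with Slc2a1, 0.51 to 0.68 with Bnip3 and 0.37 to 0.64 with Ndrg1. The pair with Ndrg1 missed the threshold after quantile normalization (0.48). The causes were not tested.

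Same-numbered knockout and control arrays of a sex correlated between -0.212 and 0.131 in their deviations from group means, so the numbers were not taken to pair these arrays. Same-numbered male and female arrays were not compared in this way. For the comparisons of the sexes, only the replicate block allowed for such a link, and its counts are given above.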
